A study of Mus musculus with 8 samples.

Results

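The genes described here are 9 chains of the integrin family that were measured in cultured mouse aortic smooth muscle cells (MASMCs). They were chosen by gene symbol as the chains of the receptors for fibronectin, vitronectin, and latent TGF-β, together with the α4 and α9 chains. All 9 were found among the 18533 gene symbols with counts. They are *Itga5*, *Itgav*, *Itga8*, *Itgb3*, *Itgb5*, *Itgb6*, *Itgb8*, *Itga4*, and *Itga9*.

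Integrins are cell surface receptors made of one α chain and one β chain, which link the extracellular matrix outside the cell to the actin cytoskeleton inside it. The pairing of the chains sets the ligand: many members of this group bind a short Arg-Gly-Asp (RGD) motif in matrix proteins, and some αv integrins bind the latent form of TGF-β and release the active cytokine. In the arterial wall, such receptors anchor smooth muscle cells to fibronectin and related proteins and take part in migration, matrix assembly, and the change from a contractile to a synthetic state.

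The study compared gene expression by RNA-Seq between WT and *Hint1*-/- MASMCs. *Hint1* encodes histidine triad nucleotide-binding protein 1, and the comparison asks which transcripts differ when it is missing in stimulated vascular smooth muscle cells. There were 4 samples of each genotype, with a depth that lay between 20778077 and 20888041 estimated counts.

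WT MASMCs came from male mice without the deletion and *Hint1*-/- MASMCs from male mice lacking *Hint1*, at 4 to 6 weeks of age. All 8 samples, WT included, were exposed to PDGF-BB, a growth factor that moves smooth muscle cells toward the synthetic state, at 20 ng/mL for 24 hours. There was no sample without PDGF-BB, so an effect of the growth factor itself cannot be told apart from the culture. The cells were primary cultures from aorta and not a cloned line, and the deletion was in the whole animal. C57BL/6J mice are named among the study's animals, without a statement that the cells came from them, and the deleted part of the gene was not given in the sources used here. The labels do not say that replicates came from separate mice or cultures, so the p-values measure only the spread between these samples, which may be technical.

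The deleted gene was examined first. *Hint1* (chr11:54866383-54870501 of build GRCm38, plus strand) had 2272, 2336, 2364, and 2301 estimated counts in WT replicates 1 to 4. In *Hint1*-/- replicates 1 to 4 the counts were 713, 748, 778, and 715. All *Hint1*-/- samples were below all WT samples, in the direction their labels require (log2 fold change −1.64; edgeR's quasi-likelihood test, SE 0.037 and adjusted p = 6.77e-16). *Hint1* was not at 0 in any of them.

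Of the 9 integrin chains, 8 passed edgeR's filter on low counts and were tested among 13535 genes. Genes counted as called when their p, adjusted by the Benjamini-Hochberg method over all of them, was under 0.05 and their fold change was over 1.5. By that rule 2 of the 8 were called, *Itga8* lower and *Itgb8* higher in *Hint1*-/- MASMCs. Among all genes tested 383 were called (2.83%), 201 of them lower (1.49%) and 182 higher (1.34%). Without the limit on the fold, 6 of the 8 chains had an adjusted p under 0.05, 4 lower (*Itga5*, *Itga8*, *Itgb3*, and *Itga4*) and 2 higher (*Itgav* and *Itgb8*). The same was true of 21.5% of all genes, 10.2% lower and 11.2% higher. The genotypes did not overlap in CPM, the counts scaled to the size of each library, for those 6 chains, against 23.0% of all genes. The median log2 fold change of the 8 chains was −0.09, beside 0.00031 for all genes tested. *Itgb6* did not pass the filter and has no test, so these counts do not describe all 9.

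**Figure D1:**
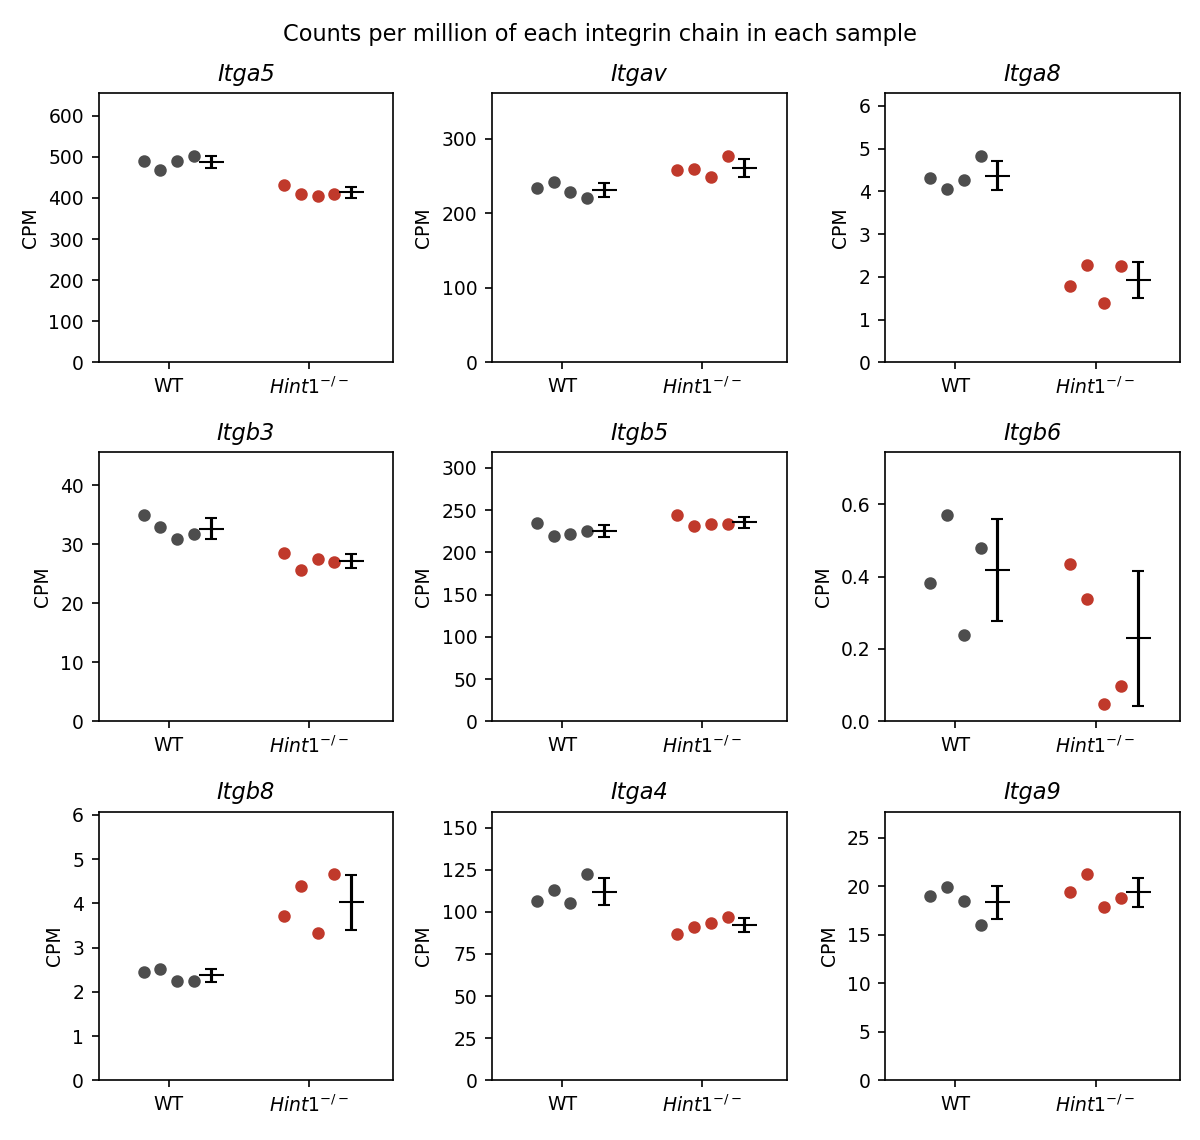
CPM of each of the 9 chains on a vertical axis that starts at 0, with 1 point per sample (gray, WT; red, *Hint1*-/-; n = 4 each) and the mean with its SD as a black bar beside the points. *Itga5*, *Itga8*, *Itgb3*, and *Itga4* lie lower and *Itgav* and *Itgb8* higher in every *Hint1*-/- sample, while the genotypes overlap for *Itgb5*, *Itgb6*, and *Itga9*.

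*Itga5* encodes the α5 chain, which pairs with β1 as the main fibronectin receptor. It measured 490, 469, 490, and 503 CPM in WT replicates 1 to 4 and 433, 409, 404, and 410 CPM in *Hint1*-/- replicates 1 to 4. Every *Hint1*-/- sample was below every WT sample, although the step was small next to the level. The mean went from 488 ± 14.4 CPM to 414 ± 12.8 CPM in *Hint1*-/- MASMCs (SD, n = 4 each), and *Itga5* fell by 15.2% (log2 fold change −0.24, SE 0.034, 95% interval −0.31 to −0.17, adjusted p = 4.06e-05, edgeR's quasi-likelihood test). *Itga5* lies at chr15:103344286-103366763 on the minus strand. In bulk samples such as these, fewer cells of a type and less RNA per cell cannot be told apart.

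*Itgav* encodes the αv chain, the shared partner of β1, β3, β5, β6, and β8. It measured 233, 242, 228, and 221 CPM in WT replicates 1 to 4 and 258, 259, 249, and 277 CPM in *Hint1*-/- replicates 1 to 4. All *Hint1*-/- samples were above all WT samples, the opposite direction from *Itga5*. The mean rose from 231 ± 8.96 to 261 ± 12 CPM (SD, n = 4 each), a log2 fold change of 0.17 (SE 0.038, 95% interval 0.09 to 0.25, adjusted p = 0.00254, edgeR's quasi-likelihood test), or 12.9%. *Itgav* lies at chr2:83724397-83806916 on the plus strand, where 634 bases of its exons overlap those of *Gm13684* on the opposite strand. Whether the counting used strand is not stated, so reads of that overlap cannot be assigned to either gene.

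As these chains moved in opposite directions, their ratio was taken within each sample. The CPM of *Itga5* divided by that of *Itgav* was 2.10, 1.94, 2.15, and 2.28 in WT replicates 1 to 4 and 1.68, 1.58, 1.62, and 1.48 in *Hint1*-/- replicates 1 to 4. The genotypes did not overlap in this ratio. That had to be so, because neither chain overlapped and they moved in opposite directions, so the ratio gives only a size and no further support. Per kb of exon, *Itga5* made up 75.3% ± 1.03 of the summed level of the 5 α chains in WT and 71.4% ± 1.11 in *Hint1*-/- MASMCs (SD, n = 4 each). The share of *Itgav* was 16.4% ± 0.897 and 20.7% ± 0.823.

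*Itga8* encodes the α8 chain, which pairs with β1, binds nephronectin and fibronectin, and is abundant in contractile vascular smooth muscle. It had 90, 85, 89, and 101 estimated counts in WT replicates 1 to 4, and 37, 47, 29, and 47 in *Hint1*-/- replicates 1 to 4. The highest *Hint1*-/- samples lay well under the lowest WT sample. The mean went from 4.37 ± 0.336 to 1.93 ± 0.423 CPM in *Hint1*-/- MASMCs (SD, n = 4 each), and *Itga8* fell by 1.18 on the log2 scale (SE 0.150, 95% interval −1.49 to −0.86, adjusted p = 1.24e-05, edgeR's quasi-likelihood test). On the linear scale it fell by 55.7%. The gene had at most 101 counts in a sample, so the interval is wide beside that of *Itga5*. *Itga8* lies at chr2:12106632-12301922 on the minus strand, and 372 bases of its exons are shared with *E030013I19Rik* on the opposite strand, which was not analysed here.

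The genes nearest to *Itga8* in profile, by the root mean square difference of centered log2 CPM over the 8 samples and among 11849 genes, were *Cnn1* at 0.145, *Wnt2* at 0.186, and *Igf2bp3* at 0.196. *Cnn1*, which encodes the contractile protein calponin 1, had 283 to 349 counts in WT and 116 to 161 in *Hint1*-/- samples. *Cnn1* is also 1 of the 8 smooth muscle markers examined, of which 7 were tested and 3 were called, all lower in *Hint1*-/- MASMCs: *Myh11* by a log2 fold change of −1.55, *Cnn1* by −1.12, and *Des* by −0.61. With an adjusted p under 0.05 there were 5 lower and 1 higher, *Smtn* (log2 fold change 0.25, adjusted p = 9.00e-05, edgeR's quasi-likelihood test), while *Tagln* did not pass (−0.11, adjusted p = 0.0696). The summed level of the 8 was 1469, 1353, 1468, and 1469 CPM in WT replicates 1 to 4 and 1185, 1207, 1159, and 1117 CPM in *Hint1*-/- replicates 1 to 4. *Acta2*, the most abundant of them, measured 826 ± 44.6 CPM in WT and 578 ± 15.6 CPM in *Hint1*-/- MASMCs, and *Myocd* had only 7 to 14 counts. The sum was led by *Acta2* and *Tagln* (403 CPM in WT on average), while *Myh11* and *Cnn1* averaged only 20.4 and 15.1 CPM in WT. The cultures thus held smooth muscle transcripts, and the marker sum moved in the same direction as *Itga8*. Its part in the lower *Itga8* was not tested.

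Markers of Schwann cells and glia also moved in the direction of *Itga8*. Of 8 such genes 6 were called, all lower in *Hint1*-/- samples, among them *Ngfr* (log2 fold change −2.73), *Sox10* (−2.53), *Foxd3* (−2.28), and *Erbb3* (−1.13). The sum of the 8 was 70.4, 68.8, 71.5, and 65.7 CPM in WT replicates 1 to 4 and 29.6, 27.2, 29.3, and 27.1 CPM in *Hint1*-/- replicates 1 to 4. Over all 8 samples *Mbp*, which was not called, had the highest mean CPM of these markers. It measured 16.9 CPM in WT and 15.0 CPM in *Hint1*-/- MASMCs on average. *Ngfr* stood above *Mbp* in WT, at 21.9 CPM, and under it in *Hint1*-/- MASMCs, at 3.30 CPM. None of the markers was at 0 in all samples. The study's methods describe stripping the aorta of its adventitia and endothelium before digestion, and the adventitia is the layer that holds most nerves and fibroblasts of the wall. The part of these markers in the *Itga8* result was not tested.

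The β chains that pair with αv were next. *Itgb3* encodes β3, which with αv forms a receptor for vitronectin, osteopontin, and fibronectin. It measured 35.1, 32.9, 30.9, and 31.8 CPM in WT replicates 1 to 4 and 28.6, 25.6, 27.6, and 27.0 CPM in *Hint1*-/- replicates 1 to 4. The genotypes did not overlap. The mean fell from 32.7 ± 1.80 to 27.2 ± 1.25 CPM (SD, n = 4 each), a log2 fold change of −0.26 (SE 0.051, 95% interval −0.37 to −0.16, adjusted p = 0.000943, edgeR's quasi-likelihood test). *Itgb3* is the only one of the 9 on chromosome 11, at chr11:104608000-104670476 on the plus strand and 49.7 Mb from *Hint1*.

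*Itgb5* encodes β5, which with αv binds vitronectin. It measured 235, 219, 222, and 226 CPM in WT replicates 1 to 4 and 245, 231, 234, and 233 CPM in *Hint1*-/- replicates 1 to 4. WT replicate 1 was above 3 of the *Hint1*-/- samples, so the genotypes overlapped. The log2 fold change of 0.06 (95% interval −0.01 to 0.13) did not pass the test (adjusted p = 0.196, edgeR's quasi-likelihood test), and the interval leaves room for a rise of at most 0.13 on the log2 scale. *Itgb5* lies at chr16:33829665-33949338 on the plus strand.

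*Itgb8* encodes β8, which with αv binds the latent TGF-β complex. It had 51, 53, 47, and 47 estimated counts in WT replicates 1 to 4 and 77, 91, 69, and 97 in *Hint1*-/- replicates 1 to 4. Every *Hint1*-/- sample was above every WT sample, and the *Hint1*-/- samples were also the more spread. The level rose from 2.37 ± 0.140 to 4.03 ± 0.621 CPM (SD, n = 4 each), a log2 fold change of 0.76 (SE 0.140, 95% interval 0.47 to 1.06, adjusted p = 0.000539, edgeR's quasi-likelihood test). The fitted rise was 69.8%, and the lower end of the interval lies under the 1.5-fold limit used for calling. *Itgb8* lies at chr12:119158022-119238802 on the minus strand.

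The genes nearest to *Itgb8* in profile, by the same measure, were *Pdzd2* at 0.0973, *Gxylt2* at 0.0999, and *Epas1* at 0.102. *Epas1*, which encodes the hypoxia-inducible factor 2α, had 255 to 294 counts in WT and 391 to 468 in *Hint1*-/- samples. Among fibroblast markers, 7 of 7 were tested and 4 were called, *Tcf21* (log2 fold change 1.20), *Lum* (0.88), and *Dcn* (0.83) higher and *Dpt* (−0.79) lower in *Hint1*-/- MASMCs. Their sum, led by *Dcn*, was 1774, 1729, 1752, and 1801 CPM in WT replicates 1 to 4 and 2670, 2755, 2620, and 2633 CPM in *Hint1*-/- replicates 1 to 4. With an adjusted p under 0.05 there were 4 higher and 2 lower, *Col14a1* (log2 fold change −0.30) among the lower ones. *Dcn* alone went from 1112 CPM in WT to 1975 CPM in *Hint1*-/- MASMCs on average and made up most of the rise of the sum. The sum moved in the same direction as *Itgb8*, and its part in that result was not tested.

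The summed levels of some sparse markers of other cells were also higher beside *Itgb8*. For epithelial and mesothelial cells, 2 of 7 listed markers could be tested and *Krt19* was called higher (log2 fold change 0.84), while *Upk3b* did not pass the test (−0.31, adjusted p = 0.445, edgeR's quasi-likelihood test). The 7 summed to 6.28, 5.77, 5.16, and 5.60 CPM in WT replicates 1 to 4 and 10.5, 8.46, 7.16, and 10.6 CPM in *Hint1*-/- replicates 1 to 4, with *Krt19* the largest (4.59 CPM in WT and 8.22 CPM in *Hint1*-/- MASMCs on average), and *Krt8* and *Krt18* were at 0 in every WT sample. For cardiac muscle, 3 of 9 markers could be tested. *Tnnt2*, with the most CPM over all 8 samples, was called higher (log2 fold change 0.76). *Myh6* and *Myl7* were called higher too, but they passed the filter on low counts only through the *Hint1*-/- samples, so they had to differ and their calls give no support. The 9 summed to 2.11, 1.86, 1.29, and 2.16 CPM in WT replicates 1 to 4 and 7.67, 7.15, 8.65, and 4.77 CPM in *Hint1*-/- replicates 1 to 4, and *Myl7*, *Myl3*, and *Mb* were at 0 in every WT sample. The cardiac sum includes *Myh6* and *Myl7*, so its rise gives no support either. *Itgb8* itself stood at 2.25 to 4.67 CPM, and the part of these markers in its rise was not tested.

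*Itgb6* encodes β6, an epithelial chain that with αv also binds latent TGF-β. Its estimated counts were 8.42, 12.3, 4.51, and 10 in WT replicates 1 to 4 and 9.21, 6.82, 1.04, and 2.12 in *Hint1*-/- replicates 1 to 4. The genotypes overlapped and every sample was near the lower end of what can be measured. It failed the filter on low counts, and when no filter was applied edgeR's quasi-likelihood test gave it an adjusted p of 0.294 at a log2 fold change of −0.85 (SE 0.50), so a difference was not detectable at this depth. *Itgb6* lies at chr2:60598292-60722643 on the minus strand.

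The β chains that pair with αv, other than the β1 chain, were compared per kb of exon, since longer transcripts give more reads. *Itgb1*, which many α chains share, was left out, and at 300 CPM per kb over all 8 samples it stood far above each of them, so these are not shares of all partners of αv. *Itgb5* accounted for 91.6% ± 0.320 of the summed level of *Itgb3*, *Itgb5*, *Itgb6*, and *Itgb8* in WT and 93.0% ± 0.104 in *Hint1*-/- MASMCs (SD, n = 4 each). The share of *Itgb3* was 8.22%, 8.26%, 7.70%, and 7.80% in WT replicates 1 to 4 and 6.54%, 6.23%, 6.60%, and 6.48% in *Hint1*-/- replicates 1 to 4. The share of *Itgb8* was 0.306%, 0.338%, 0.299%, and 0.295% in WT replicates 1 to 4 and 0.453%, 0.570%, 0.424%, and 0.599% in *Hint1*-/- replicates 1 to 4. The genotypes did not overlap in either share, as they did not in the CPM of either chain, so this adds no support. *Itgb8* remained under 1% of this sum per kb in every sample after its rise, while of the CPM without the length its share was 0.908% ± 0.0565 in WT and 1.51% ± 0.252 in *Hint1*-/- MASMCs (SD, n = 4 each). Per kb, *Itgb6* held 0.0852% in WT and 0.0448% in *Hint1*-/- MASMCs on average.

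**Figure D2:**
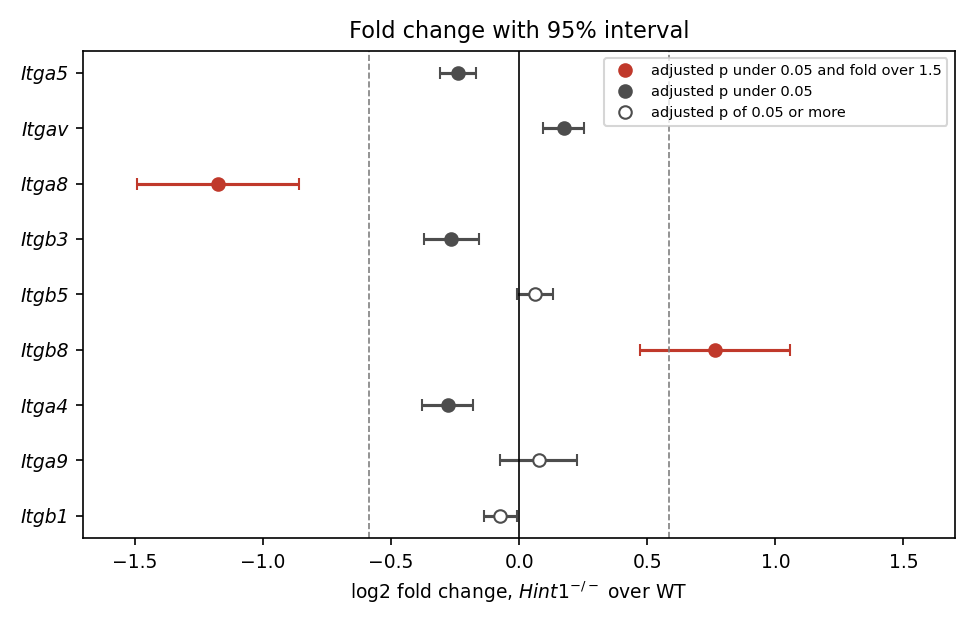
Log2 fold change of *Hint1*-/- over WT for the 8 tested chains and their partner *Itgb1*, with 95% intervals (n = 4 per genotype). Broken lines mark a fold of 1.5, and only *Itga8* (−1.18) and *Itgb8* (0.76) have estimates outside them, in opposite directions.

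*Itga4* and *Itga9* encode α4 and α9, which do not depend on RGD and bind sites in fibronectin, VCAM-1, osteopontin, and tenascin-C. *Itga4* is best known from leukocytes. It measured 107, 113, 105, and 123 CPM in WT replicates 1 to 4 and 86.7, 91.1, 93.6, and 97.1 CPM in *Hint1*-/- replicates 1 to 4. All *Hint1*-/- samples were below all WT samples. The mean fell from 112 ± 8.00 to 92.1 ± 4.39 CPM (SD, n = 4 each), a log2 fold change of −0.28 (SE 0.047, 95% interval −0.38 to −0.18, adjusted p = 0.000243, edgeR's quasi-likelihood test). *Itga4* lies at chr2:79255426-79333123 on the plus strand. It shares 1124 exon bases with *Cerkl* on the opposite strand, which had only 13 to 30 counts in a sample, and its counts were not whole numbers in any of the 8 samples.

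*Itga9* measured 19.0, 20.0, 18.5, and 16 CPM in WT replicates 1 to 4 and 19.4, 21.3, 17.9, and 18.8 CPM in *Hint1*-/- replicates 1 to 4. The ranges overlapped, with WT replicate 4 the lowest of the 8 samples. The log2 fold change was 0.08 (95% interval −0.07 to 0.23, adjusted p = 0.496, edgeR's quasi-likelihood test). With 1 sample left out it lay between 0.02 (without WT replicate 4) and 0.12 (without WT replicate 2), and it passed the test in neither fit. The CPM of *Itga4* divided by that of *Itga9* was 5.61, 5.64, 5.69, and 7.67 in WT replicates 1 to 4 and 4.46, 4.27, 5.23, and 5.17 in *Hint1*-/- replicates 1 to 4. These ratios did not overlap between genotypes, and WT replicate 4 stood apart from the other WT samples, being high in *Itga4* and low in *Itga9*. *Itga9* lies at chr9:118606690-118901003 on the plus strand.

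Macrophage and myeloid markers were measured because α4, αv, and β3 are also chains of those cells. Of 11 such markers 10 were tested, and edgeR's quasi-likelihood test gave 8 of these an adjusted p under 0.05, with 7 lower in *Hint1*-/- samples without reaching the 1.5-fold limit, while *C1qc*, at 5 to 17 counts, was called higher by that test and by limma-voom but not by DESeq2. *C1qc* passed the filter on low counts only through the *Hint1*-/- samples, so its call gives no support. Among the lower ones were *Cd68* (log2 fold change −0.44), *Csf1r* (−0.38), and *Ptprc* (−0.31). The 11 summed to 2488, 2645, 2579, and 2855 CPM in WT replicates 1 to 4 and 2051, 2194, 2189, and 2093 CPM in *Hint1*-/- replicates 1 to 4. *Lyz2*, the most abundant, stood at 1202 ± 88.0 CPM in WT and at 966 ± 29.0 CPM in *Hint1*-/- MASMCs. The cultures labeled as smooth muscle thus carried high levels of myeloid transcripts in every sample. Both the marker sum and *Itga4* were highest in WT replicate 4, and the sum moved in the direction of *Itga5*, *Itgb3*, and *Itga4*. Its part in those results was not tested.

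Among markers of cells that were scarce, 6 of 8 endothelial genes and 3 of 5 platelet and megakaryocyte genes were tested and 0 were called by edgeR's quasi-likelihood test, DESeq2, or limma-voom. At an unadjusted p under 0.05 there were 2 endothelial genes and 0 platelet genes, against 4445 of all 13535 genes tested. The endothelial genes, led by *Cdh5*, summed to 7.95 ± 1.12 CPM in WT and to 7.44 ± 0.905 CPM in *Hint1*-/- MASMCs, and the platelet genes, with *Itga2b* the largest in CPM, to 3.72 ± 0.367 and 3.62 ± 0.537 CPM (SD, n = 4 each). Both sums overlapped between genotypes, and the part of these cells in the member results was not tested.

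The order of the levels was examined per kb of exon, on the mean CPM per kb over all 8 samples. *Itga5* stood highest of the 9 at 91.4, followed by *Itgb5* at 64.9, *Itgav* at 22.9, *Itga4* at 7.29, *Itgb3* at 5.07, *Itga9* at 2.45, *Itga8* at 0.427, *Itgb8* at 0.289, and *Itgb6* at 0.0455 CPM per kb. Neighbors in this order did not overlap within either genotype, with 1 exception. *Itga8* and *Itgb8* were separate in WT, at 0.593 ± 0.0456 and 0.214 ± 0.0127 CPM per kb, and overlapped in *Hint1*-/- MASMCs, where the means were 0.262 ± 0.0574 and 0.364 ± 0.0561 (SD, n = 4 each). The means of these chains thus changed places. The overlap depends on the length used: per kb of the longest annotated transcript, the highest *Itga8* value in *Hint1*-/- MASMCs was 0.391 and the lowest *Itgb8* value 0.395, so they did not overlap. The order over all 8 samples was the same with that length.

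Among 13145 tested genes with an annotated length, *Itga5* and *Itgb5* stood at the 96.2 and 94.4 percentiles of the mean CPM per kb. *Itgav* stood at 82.7, *Itga4* at 56.8, *Itgb3* at 46.7, and *Itga9* at 29.9. The called chains were the least abundant of the tested ones, with *Itga8* at 8.99 and *Itgb8* at 6.14. The changes that passed the fold limit therefore lay in chains with few reads, and those of the abundant chains *Itga5* and *Itgav* were small.

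**Figure D3:**
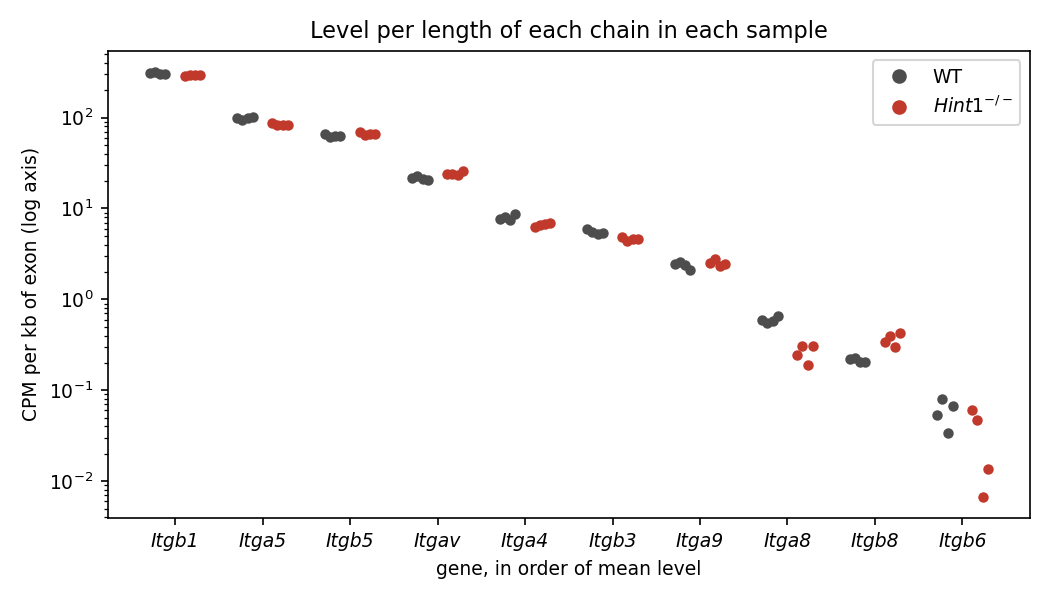
Level of the 9 chains and of *Itgb1* in CPM per kb of exon on a log axis, 1 point per sample (gray, WT; red, *Hint1*-/-; n = 4 each), in order of the mean. *Itga8* and *Itgb8* are separate in WT (0.593 and 0.214 on average) and overlap in *Hint1*-/- MASMCs on this length, but not per kb of the longest annotated transcript.

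The other chains with which these 9 pair are *Itgb1*, *Itgb7*, and *Itga2b*. *Itgb1*, which encodes the partner of α4, α5, α8, α9, and αv, was above each of the 9 per length, at 300 CPM per kb, beside 3.54 for *Itgb7* and 0.324 for *Itga2b*. It measured 1257 ± 31.0 CPM in WT and 1195 ± 14.4 CPM in *Hint1*-/- MASMCs (SD, n = 4 each), a log2 fold change of −0.07 (95% interval −0.14 to −0.01, adjusted p = 0.105, edgeR's quasi-likelihood test). The genotypes did not overlap for *Itgb1*, yet it did not pass the test. Of these 3 chains 0 were called by edgeR's quasi-likelihood test, DESeq2, or limma-voom. An unadjusted p under 0.05 was found for 1 of them and for 4445 of all 13535 genes tested.

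The integrins that bind laminin and collagen are the nearest relatives outside these 9 chains, and their values are set beside them with no test of the difference. Of 8 laminin and collagen chains, 2 were called, *Itga7* (log2 fold change −1.01) and *Itga6* (−0.65), both lower in *Hint1*-/- MASMCs. With an adjusted p under 0.05 there were 4 lower and 1 higher, and the median log2 fold change was −0.34, beside −0.09 for the 8 tested members. The highest of them per length, *Itga2*, *Itga11*, and *Itga3*, stood at 17.9, 5.98, and 1.92 CPM per kb, under *Itga5*, *Itgb5*, and *Itgav*. Leukocyte chains had 4 of 6 genes tested and 0 called by edgeR's quasi-likelihood test, DESeq2, or limma-voom. The 2 with an unadjusted p under 0.05, *Itgb2* (log2 fold change −0.29) and *Itgal* (−0.25), also had an adjusted p under 0.05 and moved in the direction of *Itga4*. *Itgam*, the highest at 37.4 CPM per kb beside 19.8 for *Itgb2* and 2.24 for *Itgal*, did not (−0.04, adjusted p = 0.523, edgeR's quasi-likelihood test). The median of the 4 was −0.15.

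Ligands of these receptors were then examined. Of 31 ligand genes listed, 29 had counts and 23 were tested, of which 4 were called, all lower in *Hint1*-/- MASMCs: *Edil3* (log2 fold change −2.11), *L1cam* (−1.24), *Tgfbi* (−1.10), and *Postn* (−1.08). *Edil3* and *Postn* encode ligands of αvβ3 and αvβ5, and *Itgb3* fell while *Itgb5* did not pass the test. With an adjusted p under 0.05 there were 8 lower and 6 higher, and the median log2 fold change was −0.04. *Npnt*, which encodes the α8β1 ligand nephronectin, measured 140 ± 6.19 CPM in WT and 176 ± 3.83 CPM in *Hint1*-/- MASMCs (SD, n = 4 each; log2 fold change 0.33, adjusted p = 1.49e-06, edgeR's quasi-likelihood test), so that ligand and the *Itga8* chain moved in opposite directions.

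The most abundant ligand transcripts per length were *Spp1*, *Fn1*, and *Thbs1*, at 5056, 537, and 476 CPM per kb. *Spp1*, which encodes osteopontin, a ligand of αvβ3, α4β1, and α9β1, was lower in *Hint1*-/- MASMCs (log2 fold change −0.28, adjusted p = 8.69e-05, edgeR's quasi-likelihood test), as were *Itgb3* and *Itga4*. *Fn1*, which encodes the fibronectin bound by α5β1, had a log2 fold change of −0.04 (adjusted p = 0.655, edgeR's quasi-likelihood test), while *Itga5* fell. *Vcam1*, whose product binds α4β1, also had −0.04 (adjusted p = 0.389, edgeR's quasi-likelihood test), while *Itga4* fell. For the α9β1 ligands, *Tnc* was lower (−0.22, adjusted p = 0.00117) and *Svep1* higher (0.27, adjusted p = 0.000178, edgeR's quasi-likelihood test), while *Itga9* did not pass the test. *Vtn*, which encodes vitronectin, had 0 to 2 counts in a sample, so in these cultures the transcript of this αvβ3 and αvβ5 ligand was near 0. *Npnt*, *Vcam1*, *Tnc*, *Svep1*, and *Vtn* were picked as well-known ligands of these receptors after their values had been seen.

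Since β8 and β6 with αv bind latent TGF-β, the 12 genes of TGF-β, its latency and anchoring proteins, and its receptors were examined. Of these 0 were called by edgeR's quasi-likelihood test, DESeq2, or limma-voom, and 5 had an adjusted p under 0.05. An unadjusted p under 0.05 was found for 7 of them, against 4445 of all 13535 genes tested. *Tgfbr3* (log2 fold change 0.48), *Ltbp2* (0.33), and *Lrrc32* (0.18) were higher, and *Nrros* (−0.25) and *Ltbp4* (−0.20) lower, with a median of 0.03. *Lrrc32*, *Ltbp2*, and *Tgfb1* were the most abundant per length, at 105, 98.3, and 38.5 CPM per kb, each far above *Itgb8*. Of 10 genes known to be induced by TGF-β, *Itgb6* among them, 9 were tested. *Tgfbi* was called lower, 4 had an adjusted p under 0.05 and a higher level, and 3 a lower one, with a median log2 fold change of 0.11. Among the more abundant of them, *Ccn2* and *Pmepa1* (312 and 53.9 CPM per kb) had log2 fold changes of 0.33 and −0.15, so they did not move in 1 direction beside the higher *Itgb8*.

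Inside the cell, integrin tails bind activators and adaptors. Of 42 such genes 40 were tested, and 0 were called by edgeR's quasi-likelihood test, DESeq2, or limma-voom. At an unadjusted p under 0.05 there were 15, against 4445 of all 13535 genes tested. At an adjusted p under 0.05 there were 9 lower and 3 higher, with a median log2 fold change of −0.02. *Flna*, *Actn1*, and *Zyx*, the most abundant per length at 155, 144, and 134 CPM per kb, had log2 fold changes of 0.01, 0.10, and −0.00044. *Fermt3* (−0.37), which encodes the kindlin of blood cells, *Parvg* (−0.37), *Parvb* (−0.32), and *Apbb1ip* (−0.0014) were picked after their values had been seen. *Apbb1ip* did not pass the test (adjusted p = 0.984, edgeR's quasi-likelihood test), and the others moved in the direction of *Itga4* and of most myeloid markers.

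Of the 9 chains, 4 lie on chromosome 2 (*Itga8*, *Itgb6*, *Itga4*, and *Itgav*). The letters GCCNNNGGC, which AP-2 transcription factors bind and which read the same on both strands, were searched in the 250 bases before each transcript start in RefSeq (build GRCm38.p6). RefSeq's table held 9 such windows for 8 of the members, and *Itgb3* had no entry. The only window of *Itga9* (chr9:118711442-118711691) lies inside the gene as GENCODE places it, so the bases before that gene's start were not searched. One window of *Itgb6* (chr2:60673694-60673943) also lies inside its gene. The letters were found in 2 of the 9 windows, in 2768 of 13769 windows of tested genes (20.1%), and in 4509 of all 32851 (13.7%). The match in *Itga8* starts at position −45 from the transcript start and that in *Itga4* at −21. Both genes were lower in *Hint1*-/- MASMCs, as were *Itga5* without a match and *Itgb3* without an entry. The pair is shown because these are the only windows of the members with a match, which is a description of the letters and not of binding. Capitals mark the matched letters, each sequence runs 5′ to 3′ on the strand of its gene, and no overlap with other motifs was searched. *Itga8* is read from chr2:12301945-12302194 on the minus strand, where GENCODE annotates an exon of the antisense *E030013I19Rik*, and *Itga4* from chr2:79255176-79255425 on the plus strand, where it annotates no exon.
Itga8: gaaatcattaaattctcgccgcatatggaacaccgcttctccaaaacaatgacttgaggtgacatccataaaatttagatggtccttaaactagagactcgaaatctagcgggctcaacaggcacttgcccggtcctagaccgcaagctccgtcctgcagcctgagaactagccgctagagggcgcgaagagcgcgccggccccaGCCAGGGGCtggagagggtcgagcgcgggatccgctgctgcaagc
Itga4: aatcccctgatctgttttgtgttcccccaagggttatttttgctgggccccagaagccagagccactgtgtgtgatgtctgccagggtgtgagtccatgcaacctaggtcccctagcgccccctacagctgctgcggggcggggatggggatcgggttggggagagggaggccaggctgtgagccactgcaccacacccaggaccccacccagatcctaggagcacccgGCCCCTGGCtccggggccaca
The window of *Itgb8* (chr12:119238277-119238526, minus strand), which GENCODE places in the first exon of the gene, holds no match, and no match says only that these letters are not in that window.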

How the data were processed

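RNA from 8 MASMC samples, 4 WT and 4 *Hint1*-/-, was sequenced as reads of 50 bases, and samples were grouped by genotype as their labels give it. The values the authors deposited are estimated counts per gene symbol, also called expected counts, with 2 decimals and no normalization. The sources differ on how these were made: the study's methods name HISAT2 and mm10, and the submitters' processing notes name Bowtie2, RSEM 1.3.1, DESeq2 1.4.5, and mm10. The gene annotation and the use of strand were not given. Counts are not whole where reads that map to several places were divided, in 8 of 8 samples for *Itga4*, 7 for *Itgb3*, 7 for *Itgb6*, and 3 for *Itga9*, and in none for the other members, so values of those 4 genes depend on that division.

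Counts were rounded to whole numbers, filtered with filterByExpr, normalized by TMM (factors 0.993 to 1.01), and compared with glmQLFit and glmQLFTest in edgeR 4.0.16 (R 4.3.3), two-sided, over all genes and with genotype as the only term. The filter keeps a gene that is high enough in the 4 samples of 1 genotype, so a sparse gene that is tested only through that genotype had to differ. The SE is the log2 fold change divided by the square root of F. Alternatives were DESeq2's size factors, upper-quartile normalization, no filter, at least 10 counts in every sample, DESeq2 1.42.0, limma-voom (limma 3.58.1), a replicate block, leaving out 1 sample at a time, and the longest transcript as length. The code was tested on simulated data. Levels are CPM on TMM-scaled library sizes, divided by the merged exon length from GENCODE M21 (GRCm38, the mm10 build), which gave a gene for 17733 of 18533 symbols. No replicate pair was a duplicate: chi-square per gene was 2.10 to 5.47 within and 11.8 to 17.2 between genotypes. Figures used Python 3.11.15 and matplotlib 3.10.9.

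All 9 members are named. Of each pathway list, the called genes and the 3 with the highest CPM per kb are named, of each marker list the called genes, the gene with the highest mean CPM, and those at 0, and for each called member the 3 genes of nearest profile with a mean of at least 50 counts. A few genes of the lists that this rule would name are not reported here and enter only the counts, sums, and medians of their lists. Other genes were named after their values had been seen. The members and lists were chosen with earlier results of these data known.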

Additional observations from a re-analysis of the deposited data

How the results depend on the processing

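Each tested member kept its direction, its side of the adjusted p of 0.05, and its side of the 1.5-fold limit under all 15 alternatives (120 of 120 values). The log2 fold change of *Itga8* ranged from −1.26 to −1.05 (adjusted p 3.78e-08 to 9.64e-05 over edgeR, DESeq2, and limma-voom) and that of *Itgb8* from 0.68 to 0.85 (0.000169 to 0.00323). The called members were 2 and those with an adjusted p under 0.05 were 6 under every alternative. Genes called in all numbered 383, from 310 with at least 10 counts in every sample to 442 without a filter, and 350 to 390 with 1 sample left out. With a replicate block, 382 genes and 2 members were called, and no member changed its call. The numbers shared by the genotypes do not pair the samples: deviations from the genotype means correlated at −0.045 to 0.081 across genes for samples of the same number and at −0.070 to 0.13 for the others. Levels per kb rise with the longest transcript as length (*Itgav* in WT from 21.5 to 32.8), which also ends the overlap of *Itga8* and *Itgb8* in *Hint1*-/- MASMCs, while the order of the chains over all 8 samples was the same. Without the length, the difference in share between genotypes went from 0.20 to 0.60 percentage points for *Itgb8* and from −1.53 to −2.34 for *Itgb3*, and the share of *Itgav* in WT from 16.4% to 27.1%. Depth limits *Itgb6* most, at 12.3 counts or fewer in a sample, and then *Itga8* and *Itgb8*, at 101 or fewer. The same prepared cultures underlie all values, so no alternative bears on which cells they held.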

Other observations

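In 28 groups of 4 samples examined for a sample far from the others (each tested member, *Itgb6*, *Hint1*, *Itgb1*, the depth, the TMM factor, and the share that the top 20 genes take, in each genotype), none stood out, where chance alone gives about 1.4. The members summed to 1114 ± 14.6 CPM in WT and 1055 ± 21.5 CPM in *Hint1*-/- MASMCs (SD, n = 4 each), with *Itga5* the largest. The log2 fold changes of the members can be read beside the median size of change over all genes, which was 0.09 in either direction: *Itgb5* and *Itga9*, at 0.06 and 0.08, were under it, and the other 6 tested chains were above it. The place of *Itga9* depends on single samples, as its log2 fold change lay between 0.02 and 0.12 with 1 sample left out.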
